A study of Mus musculus with 13 samples.

Results

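The genes described here are S100a6, S100a4, S100a10, S100a11, S100a13, S100a1, S100a8 and S100a9, measured in mouse duodenum. They are 8 members of the S100 family and do not include calbindin. Other S100 genes on the array are described further below. A probe set (the group of array probes read as 1 value) counted for a gene if its platform annotation gave exactly 1 symbol, equal to that gene, and where a gene had several, the brightest by its mean across the 13 arrays was used. Of the 8 genes, 7 had such a probe set, among 12393 genes tested in all, and no member was removed by a filter on low values. The probe set of S100a11, an S100 protein that binds annexin A1, is also annotated to other sequences, so no value is given for it.

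The series compared the duodenum of mutant mice, named ViRas in the labels, with that of wild-type mice. All mice had a mixed strain background, started their diet after 5 weeks of age and were killed after 22 weeks on it. Normal diet was given to 2 wild-type and 3 mutant mice, high-fat diet to 2 wild-type and 2 mutant mice, and high-fat diet with butyrate to 1 wild-type and 3 mutant mice. Each mouse gave 1 array of total duodenal RNA, and every level below is a log2 RMA value (background-corrected, quantile-normalized and summarised per probe set), so that a difference of 1 is a doubling. The labels state neither the promoter that drives the mutation nor the line; as background on the published model, the mutant allele is switched on in the intestinal epithelium by a villin-driven Cre. The wild-type group on butyrate, with 1 array, has no spread of its own.

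Most S100 proteins are small dimers with EF-hand calcium-binding loops that change shape when cytosolic calcium rises. They then bind partners such as annexins, cytoskeletal proteins and enzymes. The genes of most of the family lie in 1 cluster on mouse chromosome 3. Some of the proteins are also secreted and act on receptors such as RAGE (Ager) and TLR4. S100a6 (calcyclin) is an epithelial and stromal protein that is abundant in growing cells, S100a13 takes part in the release of FGF1 and interleukin-1 alpha, S100a1 modulates calcium handling and energy metabolism and is best known from muscle, and S100a10 carries annexin A2 to the membrane. S100a4 is a cytoskeletal regulator of motile stromal and immune cells, and S100a8 and S100a9 form calprotectin, the abundant cytosolic protein of neutrophils.

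The DNA just before the start of 4 members is shown because these genes stood at the extremes of the values that follow: S100a6 had the largest genotype difference, S100a8 and S100a9 were high on 1 array, and S100a4 was the member with the most negative difference. The letters are the 250 bases before each start on assembly GRCm38.p6, from RefSeq, 5′ to 3′ on the gene's strand. They lie at chr3:90612644-90612893 (plus strand) for S100a6, chr3:90603520-90603769 (plus) for S100a4, chr3:90668821-90669070 (plus) for S100a8 and chr3:90695722-90695971 (minus) for S100a9. Capitals mark matches to the motifs searched.
S100a6: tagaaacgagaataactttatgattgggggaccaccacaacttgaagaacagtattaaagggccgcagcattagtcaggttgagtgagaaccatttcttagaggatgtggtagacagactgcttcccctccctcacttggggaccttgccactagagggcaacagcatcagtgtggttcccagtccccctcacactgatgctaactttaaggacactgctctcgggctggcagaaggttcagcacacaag
S100a4: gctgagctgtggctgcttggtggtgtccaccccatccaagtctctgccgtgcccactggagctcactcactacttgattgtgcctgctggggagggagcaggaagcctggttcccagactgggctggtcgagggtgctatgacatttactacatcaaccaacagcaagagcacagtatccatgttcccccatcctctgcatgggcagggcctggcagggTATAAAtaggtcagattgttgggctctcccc
S100a8: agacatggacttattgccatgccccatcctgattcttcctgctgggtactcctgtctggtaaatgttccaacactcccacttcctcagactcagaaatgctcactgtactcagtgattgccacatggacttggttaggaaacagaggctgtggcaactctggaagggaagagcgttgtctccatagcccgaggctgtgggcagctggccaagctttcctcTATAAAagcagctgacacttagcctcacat
S100a9: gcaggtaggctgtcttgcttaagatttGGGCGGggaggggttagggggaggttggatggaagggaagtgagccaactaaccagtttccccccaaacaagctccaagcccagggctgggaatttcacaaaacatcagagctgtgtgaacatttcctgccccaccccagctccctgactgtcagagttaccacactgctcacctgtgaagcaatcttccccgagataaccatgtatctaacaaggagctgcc

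Both strands of these windows, and of those of S100a1 and S100a13, were searched for an AP-1 motif (TGANTCA), an ETS motif (CCGGAA), a GC box (GGGCGG) and a TATA box (TATAAA), and no match overlapped another. A TATA box lay 31 bases before the start of S100a4 and 30 bases before that of S100a8, and a GC box lay 223 bases before that of S100a9. No match to any of the 4 was in the windows of S100a6, S100a13 and S100a1, which says only that these letters are not there. The windows of S100a13 and S100a1 partly cover the same bases. Over 32851 windows of the same length the AP-1 motif was in 6.75%, the ETS motif in 12.03%, the GC box in 32.7% and the TATA box in 12.4%. S100a10 is not among the windows used, so 6 of the 7 measured members were searched.

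The labelled tissue matched its markers: the brush-border protein Vil1 read 11.8 to 12.3, the fatty-acid binding protein Fabp1 13.5 to 13.8, and the mean of 11 measured intestinal epithelium markers 12.19 to 12.47 over the 13 arrays. The arrays differed more in genes of neighbouring organs. The mean of 5 measured stomach markers ran from 5.92 to 12.05 and that of 10 acinar pancreas markers from 5.52 to 13.60, with high and low arrays in both genotypes. Array identifiers run in a different number range for each diet, so diet and array series cannot be told apart, whereas both genotypes lie within each series. The 3′ minus 5′ signal of the beta-actin control probe sets was 0.63 to 0.73 in normal-diet arrays, 0.20 to 0.42 in high-fat arrays and 0.27 to 0.70 in butyrate arrays, and its part in the diet comparisons was not tested.

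S100a6 was higher in mutant than in wild-type duodenum, by 2.46-fold over the 9 arrays without butyrate. On normal diet it read 8.63 and 8.72 in the wild type and 10.43, 10.28 and 10.40 in the mutants. On high-fat diet it read 9.69 and 8.20 in the wild type and 10.09 and 9.46 in the mutants. The genotypes did not overlap on normal diet, whereas on high-fat diet wild-type array 1 lay above mutant array 2. With butyrate the wild-type array read 8.60 and the mutants 9.36, 10.43 and 8.58. Mutant butyrate array 3 thus lay at the wild-type level, while array 2 matched the highest normal-diet mutants.

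With diet as a term over the 9 arrays without butyrate, S100a6 rose by 1.30 ± 0.28 (log2, SE), a fold of 1.59 to 3.80 at 95%, with an adjusted p of 0.0312 (limma). In these bulk samples more cells that express a gene and more RNA per cell cannot be told apart. Over all 13 arrays the difference was 1.19 ± 0.30 and did not pass, with an adjusted p of 0.0745. By diet it was 1.69 ± 0.48 on normal diet (adjusted p = 0.184), 0.83 ± 0.53 on high-fat diet (0.595) and 0.86 ± 0.61 with butyrate (0.914). The difference between the high-fat and the normal-diet effect was -0.87 ± 0.72, with an interval of -2.44 to 0.71 (adjusted p = 0.915), so the size of a change with diet is not fixed by these arrays. The order of group means ran from mutants on normal diet (10.37 ± 0.08, SD) through mutants on high-fat diet (9.78 ± 0.45) and with butyrate (9.46 ± 0.93) to wild type on high-fat diet (8.95 ± 1.05), on normal diet (8.68 ± 0.06) and with butyrate (8.60, 1 array). Neighbours overlapped except the first pair and the last.

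**Figure D1:**
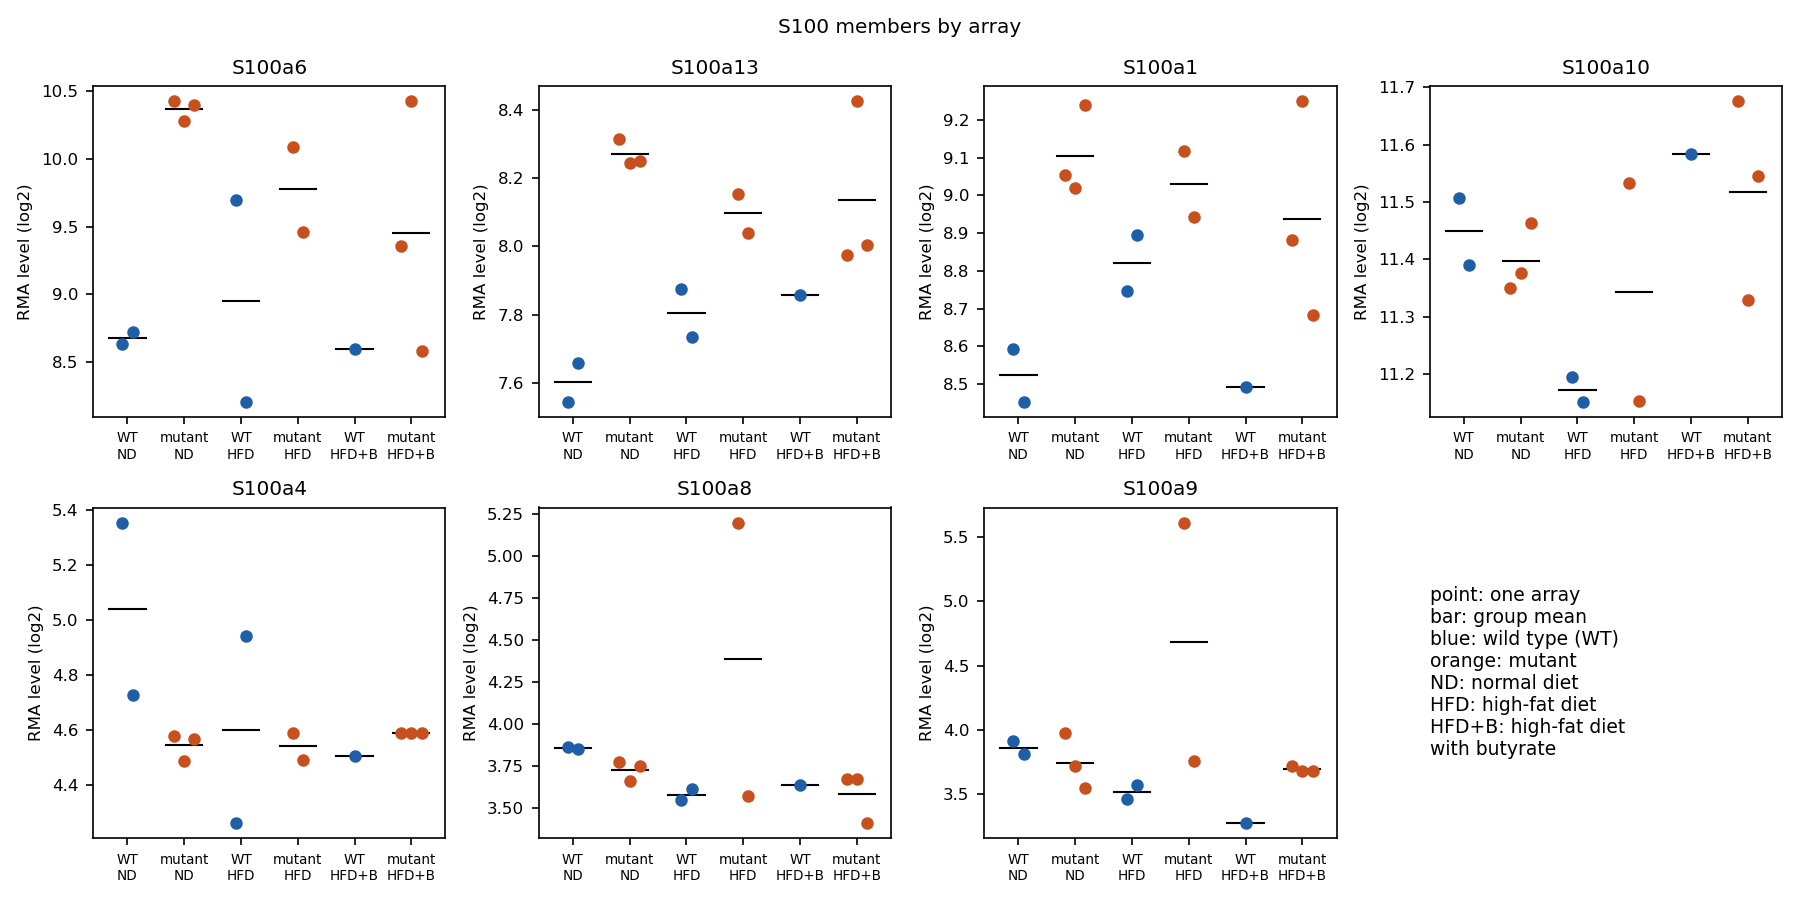
Log2 RMA level of the 7 measured S100 members on each of 13 arrays, grouped by genotype and diet, with a bar at each group mean and an axis of its own for each gene that does not start at 0. S100a6, S100a13 and S100a1 lie higher in the mutants on normal diet, while S100a8 and S100a9 are high on mutant high-fat array 1.

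The call for S100a6 was lost in most fits with fewer arrays. Of the 9 fits that each left out 1 array, it passed without array 1 of the high-fat wild type (1.65, adjusted p = 8.2e-04) and without array 2 of the high-fat mutants (1.495, 0.0323). It did not pass without any of the other 7: 1.12 (0.0753) without array 2 of the high-fat wild type, 1.27 (0.0679) without array 1 of the high-fat mutants, 1.18 (0.0812) and 1.22 (0.0670) without wild-type normal-diet arrays 1 and 2, and 1.25 (0.0805), 1.28 (0.0725) and 1.25 (0.0744) without mutant normal-diet arrays 1, 2 and 3. Over all 13 arrays it passed only when mutant butyrate array 3 was left out (1.30, 0.0318). The difference stayed between 1.12 and 1.65 in these 9 fits.

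Stomach markers and macrophage markers also differed between arrays, and their levels are set beside those of S100a6 below. Of the 5 arrays from wild-type mice, 4 had a stomach list mean of 6.25 to 6.78 and S100a6 of 8.20 to 8.72, and the fifth, high-fat array 1, had 11.99 and 9.69. Of the 8 mutant arrays, 3 had a stomach mean of 5.92 to 6.63, and their S100a6 ran from 8.58 to 10.43. These were mutant normal-diet array 2 (stomach mean 6.38, S100a6 10.28), mutant butyrate array 2 (6.63 and 10.43) and mutant butyrate array 3 (5.92 and 8.58). With the stomach mean as a covariate, a fit chosen after the data were seen, the difference over 9 arrays was 1.01 (adjusted p = 0.0352). None of the 5 stomach markers passed the genotype test themselves, the closest being Gkn2 at 3.00 ± 1.78 (0.423). All 5 had positive differences over the 9 arrays (median 1.62) and on normal diet (median 3.87), and 2 of 5 on high-fat diet (median -0.57). The part of stomach tissue in the S100a6 values was not tested beyond that covariate.

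**Figure D2:**
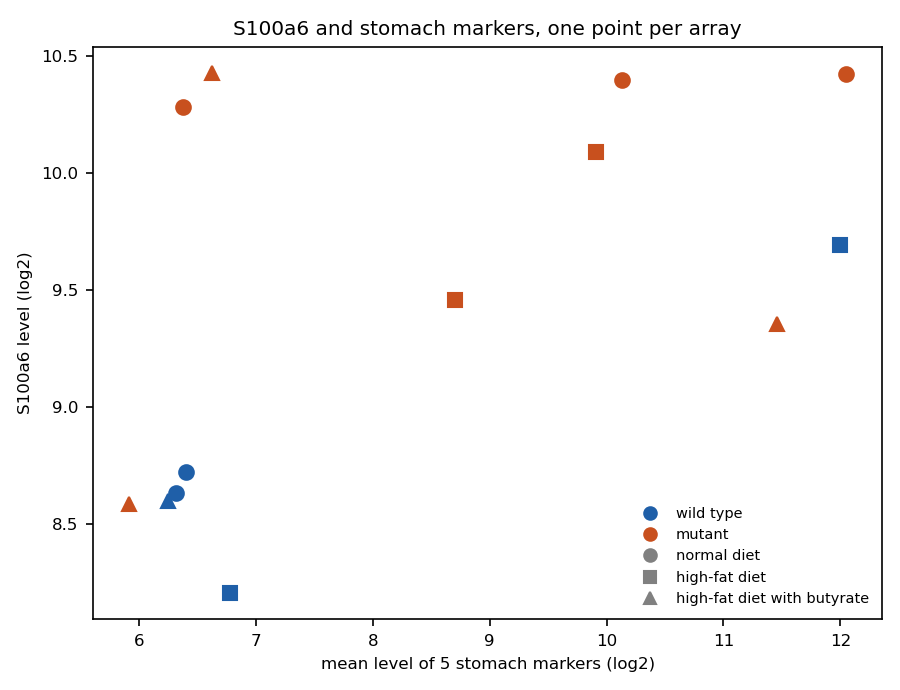
S100a6 level (log2) against the mean level of 5 stomach markers (log2), 1 point per array, coloured by genotype and shaped by diet. The 4 wild-type arrays with low stomach markers lie between 8.20 and 8.72, and the 3 mutant arrays with low stomach markers lie at 8.58, 10.28 and 10.43.

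Macrophage markers were lower in the mutants: 10 of 12 measured fell over the 9 arrays, with Lyz2, the macrophage lysozyme, at -1.57 ± 0.20 (adjusted p = 0.0034). The mean of the 12 macrophage markers was 7.51 to 7.87 on the 4 wild-type arrays without butyrate and 6.43 to 7.11 on the 5 mutant arrays. Mutant butyrate array 3, where S100a6 was 8.58, had a macrophage mean of 7.68, and mutant butyrate array 2, where S100a6 was 10.43, had 7.04. Mutant butyrate array 1, where S100a6 was 9.36, had 7.56. Wild-type high-fat array 1 had the highest S100a6 of its genotype, 9.69, with a macrophage mean of 7.76. The part of this list in the S100a6 values was not tested. Of 11 fibroblast markers 1 fell (Col3a1, a fibrillar collagen, -0.70 ± 0.12, 0.0128) and 0 rose, and of 8 smooth muscle markers 0 passed in either direction.

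S100a13 was higher in the mutants by a smaller and steadier amount, 1.41-fold over the 9 arrays. On normal diet it read 7.54 and 7.66 in the wild type and 8.31, 8.24 and 8.25 in the mutants. On high-fat diet it read 7.87 and 7.74 against 8.15 and 8.04. With butyrate the wild-type array read 7.86 and the mutants 7.98, 8.43 and 8.01. All 8 mutant arrays lay above all 5 wild-type arrays, as they did for 0.274% of genes, the closest pair being a mutant butyrate array at 7.98 and a wild-type high-fat array at 7.87.

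Over the 9 arrays S100a13 rose by 0.50 ± 0.09, a fold of 1.22 to 1.63 at 95% (adjusted p = 0.0167), and it passed in all 9 fits without 1 array, with adjusted p up to 0.0493. Over all 13 arrays the rise was 0.44 ± 0.10 (0.0477). That call was lost without each of the 9 normal-diet and high-fat arrays, with differences of 0.38 to 0.48 and adjusted p from 0.0827 (without mutant high-fat array 2) to 0.107 (without mutant normal-diet array 2), and kept without each of the 4 butyrate arrays. By diet the difference was 0.67 ± 0.14 on normal diet (0.134), 0.29 ± 0.15 on high-fat diet (0.494) and 0.28 ± 0.17 with butyrate (0.892). Mutants on normal diet had the highest mean (8.27 ± 0.04) and wild type on normal diet the lowest (7.60 ± 0.08), and the 3 mutant groups overlapped in sequence, as did the butyrate and high-fat wild-type groups.

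S100a1 was 1.33-fold higher in the mutants over the 9 arrays. On normal diet it read 8.59 and 8.45 in the wild type and 9.05, 9.02 and 9.24 in the mutants. On high-fat diet it read 8.75 and 8.89 against 9.12 and 8.94, and with butyrate 8.49 against 8.88, 9.25 and 8.68. The genotypes did not overlap within any diet by this probe set, but mutant butyrate array 3 at 8.68 lay below both wild-type high-fat arrays. Each diet taken alone, mutant arrays lay all higher for 16.7% of genes on normal diet, 24.2% on high-fat diet and 22.6% with butyrate. In the order of group means the 3 mutant groups and the wild type on high-fat diet overlapped neighbour by neighbour, and the wild type on normal diet and with butyrate lay below them.

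Over the 9 arrays S100a1 rose by 0.41 ± 0.10, a fold of 1.15 to 1.55 at 95% (adjusted p = 0.0413). Over 13 arrays the difference was 0.42 ± 0.10 (0.0629). A second probe set of the gene differed by 0.24 ± 0.12 over the 9 arrays and did not pass (adjusted p = 0.336 over 20380 probe sets). By that second probe set the genotypes overlapped on high-fat diet (7.75 and 8.10 in wild type, 8.28 and 7.88 in mutants). With butyrate, mutant array 3 at 7.897 lay just below the wild-type array at 7.900. The call from the brighter probe set held without array 2 of the high-fat wild type (0.48, 0.0382) and without that of the high-fat mutants (0.48, 0.0390). It was lost without each of the other 7 arrays, namely array 1 of the high-fat wild type (0.42, 0.0864), array 1 of the high-fat mutants (0.42, 0.0806), wild-type normal-diet arrays 1 (0.40, 0.0823) and 2 (0.34, 0.0874), and mutant normal-diet arrays 1 (0.41, 0.0978), 2 (0.42, 0.0860) and 3 (0.36, 0.0868). The annotated gene models of S100a1 and S100a13 run in opposite directions and share 98 bases. The starts used for their promoter windows, however, lie 105 bases apart, and from these starts the genes run away from each other without overlap.

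S100a10, the annexin A2 partner, held nearly the same level throughout by its brighter probe set, from 11.15 to 11.68 over the 13 arrays. Its group means were 11.45 ± 0.08 in wild type and 11.40 ± 0.06 in mutants on normal diet, 11.17 ± 0.03 and 11.34 ± 0.27 with high-fat diet, and 11.58 (1 array) and 11.52 ± 0.18 with butyrate. By that probe set the genotypes overlapped in every diet. The genotype difference over the 9 arrays was 0.05 ± 0.09, with an interval of -0.14 to 0.24 (adjusted p = 0.836), and the second probe set of S100a10 gave -0.09 ± 0.10 (0.700 over 20380 probe sets). That second probe set ran from 10.86 to 11.72. On normal diet it read 11.72 and 11.46 in the wild type, above the mutants at 11.32, 11.31 and 11.42. That difference was -0.25 ± 0.12 and did not pass (0.466). On high-fat diet the wild type read 11.20 and 10.86.

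S100a4 did not pass in any comparison. It read 5.36 and 4.73 in the wild type on normal diet against 4.58, 4.49 and 4.57 in the mutants, and 4.26 and 4.94 against 4.59 and 4.49 on high-fat diet. The wild-type butyrate array read 4.51, and the 3 mutant butyrate arrays carried the same value, 4.59. On normal diet the mutants lay below the wild type, on high-fat diet the genotypes overlapped, and with butyrate the 3 mutants lay just above the 1 wild-type array. The difference over the 9 arrays was -0.30 ± 0.17 (adjusted p = 0.411), and on normal diet -0.50 ± 0.20 (0.349). S100a4, S100a8 and S100a9 lie below the 30th percentile of mean level, and the files carry no detection calls, so it is not known how far above background they read.

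Counted together, 3 of the 7 members rose over the 9 arrays without butyrate and 0 fell, beside 2.24% of all genes tested that rose and 4.63% that passed in either direction. The median difference of the 7 was 0.41, beside 0.01 for all genes. With 1 array left out the count was 3 without array 2 of the high-fat mutants, 2 without either high-fat wild-type array, and 1 without array 1 of the high-fat mutants or without any of the 5 normal-diet arrays. Over all 13 arrays 1 of the 7 rose, beside 0.428% of genes that rose and 1.02% that passed in either direction, and this count was 0 without each of the 9 normal-diet and high-fat arrays, 3 without mutant butyrate array 3 and 1 without each of the other 3 butyrate arrays. The number of all genes that passed also moved with the fit. Over all alternatives run it went from 244 to 647 over the 9 arrays and from 2 to 329 over all 13. Whether the member counts moved apart from that shift was not tested. Arrays of the mutants lay all above those of the wild type for 2 of 7 members over the 9 arrays (S100a13 and S100a1), beside 2.83% of genes.

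Within a diet 0 of the 7 passed in limma's test: on normal diet 0.0242% of all genes passed, on high-fat diet 0.0403% and with butyrate 0%. At an unadjusted p under 0.05 the counts of members were 4 on normal diet (S100a6, S100a13, S100a1 and S100a4), 2 on high-fat diet (S100a8 and S100a9) and 1 with butyrate (S100a1). Of all 12393 genes, 1575 on normal diet, 1406 on high-fat diet and 749 with butyrate were under that threshold. Fitting the 5 normal-diet arrays alone gave S100a6 an adjusted p of 0.0021 at the same difference of 1.69. Mutant arrays lay all above wild-type arrays for 3 members on normal diet (16.7% of genes), 3 on high-fat diet (24.2%) and 4 with butyrate (22.6%), and all below for 2 on normal diet (12.4%), so shares of this size were common among all genes.

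**Figure D3:**
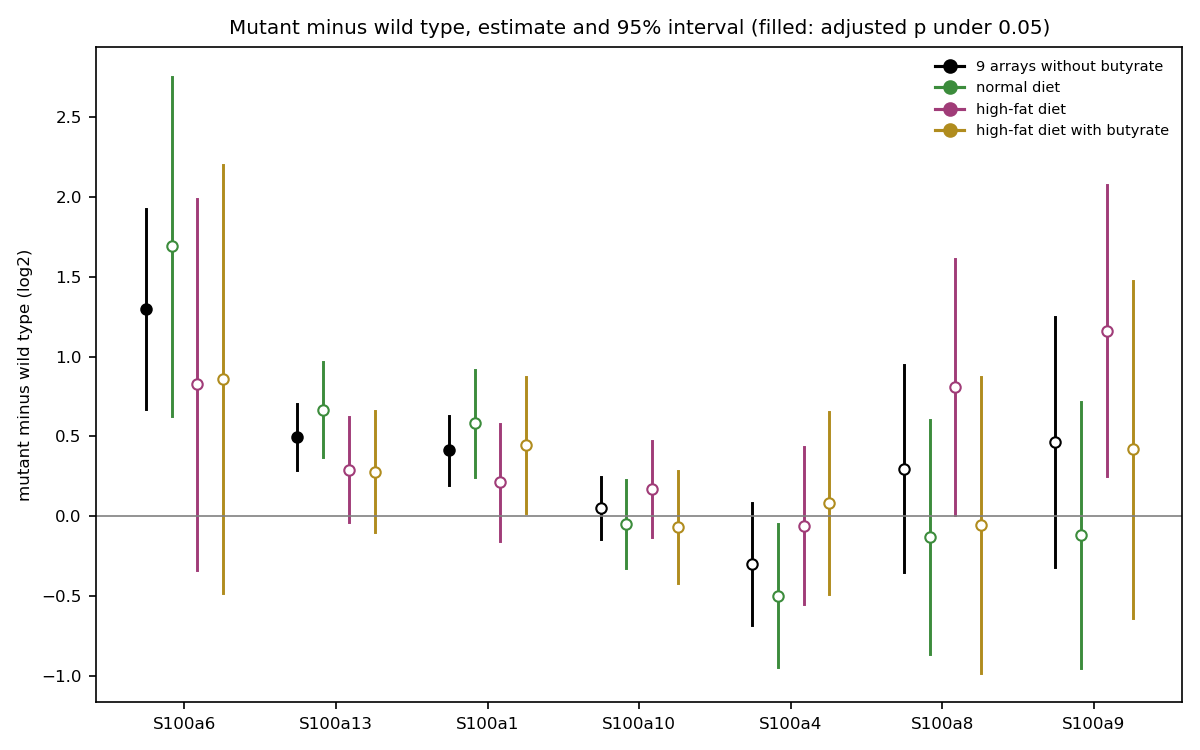
Mutant minus wild-type difference (log2) of each S100 member with its 95% interval, over the 9 arrays without butyrate and within each diet. Filled points, S100a6, S100a13 and S100a1 over the 9 arrays, have an adjusted p under 0.05, and the intervals of S100a10 all include 0.

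No member passed in a diet comparison, although these called many genes. High-fat against normal diet called 11% of genes in the wild type and 17.7% in the mutants, butyrate added to high-fat diet in the mutants called 21.7%, and high-fat diet with butyrate against normal diet in the mutants called 1.57%, each with 0 of 7 members. At an unadjusted p under 0.05 the member counts were 0, 1 (S100a9), 2 (S100a8 and S100a9) and 0. S100a6 in the mutants differed by -0.59 ± 0.48 between high-fat and normal diet (adjusted p = 0.443) and by -0.91 ± 0.43 between high-fat diet with butyrate and normal diet (0.311). In the fit of those 5 high-fat and normal-diet mutant arrays alone, the -0.59 of S100a6 had an adjusted p of 0.0456. S100a10 in the wild type differed by -0.28 ± 0.14 with high-fat diet (0.225) and S100a13 by 0.20 ± 0.15 (0.422). Neither of the 2 tests of whether the genotype difference changed with diet called a member, beside 0.00807% of genes in each. In them 1 (S100a9) and 0 members had an unadjusted p under 0.05, and the share of all genes under it is not given here.

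S100a8 and S100a9, the calprotectin subunits, stood apart on 1 array, mutant high-fat array 1. S100a8 read 5.20 there and 3.41 to 3.86 on the other 12 arrays, and S100a9 read 5.61 there and 3.28 to 3.97 on the others. Mutant high-fat array 2 read 3.57 and 3.76, inside the range of the rest. The excess over the next array was 1.34 for S100a8 and 1.63 for S100a9, which placed them 6 and 3 among 12393 genes ranked by that excess. The other 5 measured members were not above all other arrays there.

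The genotype differences of this pair depended on that array. On high-fat diet S100a9 differed by 1.16 ± 0.42 (adjusted p = 0.329) and S100a8 by 0.81 ± 0.37 (0.434). Without mutant high-fat array 1 they were 0.24 (0.682) and -0.01 (0.997). Without mutant high-fat array 2, which leaves array 1 as the only mutant on high-fat diet, they were 2.09 (0.0019) and 1.62 (0.0029), with the spread taken from the other groups. The same omission gave adjusted p from 2.8e-04 to 0.0147 for both genes when mutants on high-fat diet were compared with mutants on normal diet or with butyrate, and when the genotype difference was compared between high-fat and normal diet.

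Neutrophil markers were only slightly higher on mutant high-fat array 1. Of 12 measured, 5 were above all other arrays, beside 9.99% of all genes, and the largest excess was 0.28, for the granule peroxidase Mpo. The list mean was 4.67 there and 4.13 to 4.55 elsewhere, and 0 of the 12 passed the genotype test over the 9 arrays. These list means lie under 5.09, the 30th percentile of mean level, so how far the list reads above background is not known. The elastase Elane (3.50 there, 3.22 to 3.83 elsewhere) and the receptor Csf3r (5.05, and 4.41 to 5.18) lay within the range of the other arrays. Among the genes closest to S100a9 across the arrays were Slc4a1, the anion exchanger of red blood cells (6.42 there, 3.92 to 4.85 elsewhere), and Alas2, the first haem synthesis enzyme of red blood cell precursors (6.44, and 4.12 to 5.19). A list of red blood cell genes was written after these values were seen. Of its 8 measured genes, only Slc4a1 and Alas2 were above the other 12 arrays. Their place in that count was thus known beforehand. The globins Hba-a1 (3.50 there, 3.39 to 3.88 elsewhere) and Hbb-b2 (4.59, and 4.07 to 4.73) were not above the other arrays. Nor were the globin Hba-a2 and the remaining listed genes Epb42, Rhag and Klf1. The part of blood cells in the S100a8 and S100a9 values was not tested.

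**Figure D4:**
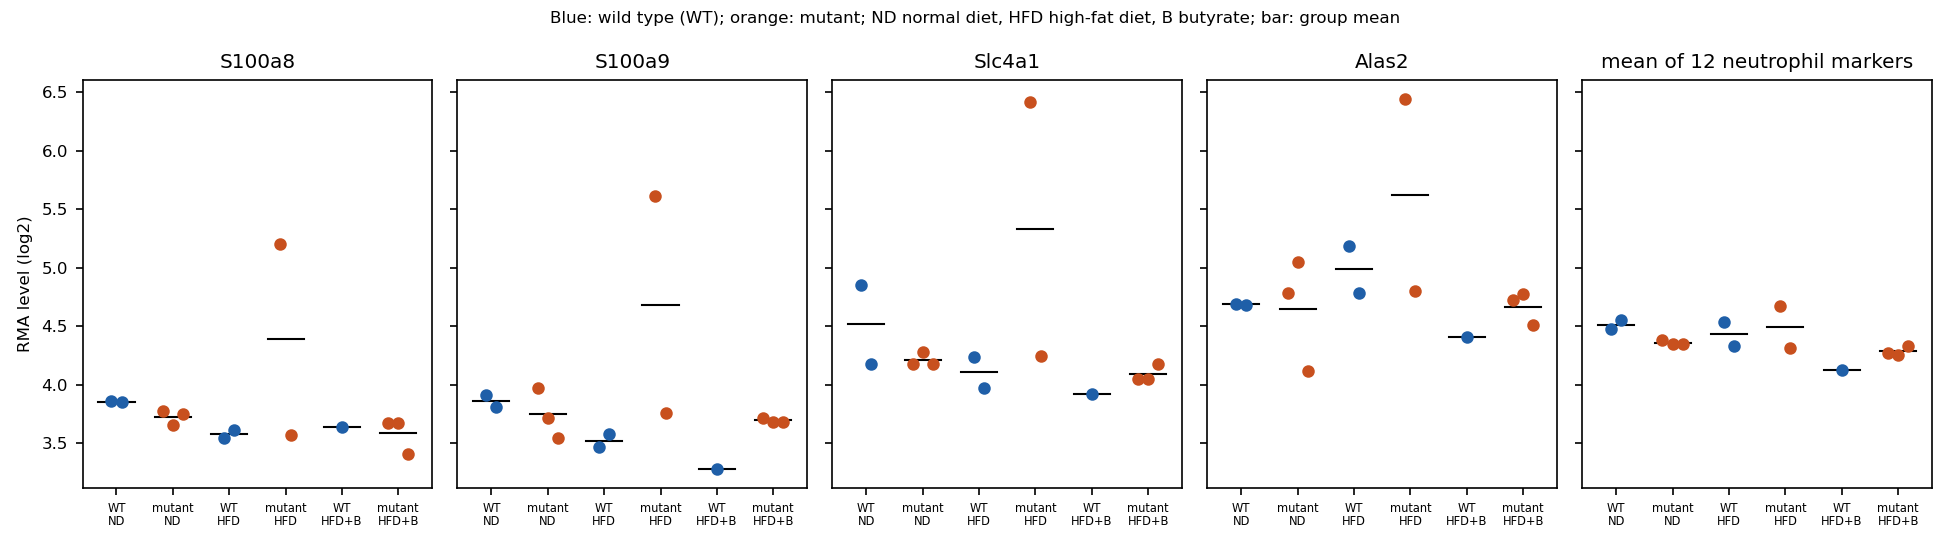
Log2 level by array of S100a8, S100a9, Slc4a1 and Alas2, and the mean of 12 neutrophil markers, on a shared axis, with a bar at each group mean. Mutant high-fat array 1 lies at 5.20 to 6.44 for the 4 genes, while its neutrophil mean of 4.67 is near the 4.13 to 4.55 of the other arrays.

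The genes most like a member were named for the 3 members whose spread over the 13 arrays is in the top 10% of genes, by the mean absolute difference of levels centred on each gene's own mean. For S100a6 these were Mboat1, a lysophospholipid acyltransferase (0.22), Serpinb5, the serpin maspin (0.26), S100a14 (0.26), Ankrd22 (0.27) and Cldn2, the cation-pore claudin of leaky epithelia (0.28), against a mean absolute deviation of 0.71 for S100a6 itself. Over the 9 arrays Mboat1 rose by 1.32 ± 0.27 (adjusted p = 0.0241, passing in 5 of 9 fits without 1 array) and Ankrd22 by 0.92 ± 0.15 (0.0097), whereas Serpinb5 at 0.90 ± 0.23 (0.0573) and Cldn2 at 0.76 ± 0.33 (0.257) did not pass. These genes were picked for their likeness to S100a6 on the same arrays. Their genotype differences are therefore not independent of that of S100a6. S100a8 and S100a9 were each other's closest gene (0.15). Next came Msantd3, Rgs20, Ache and Epop for S100a8, and Slc4a1, Epop, Alas2 and Mmp17 for S100a9. The arrays share their diets and array series, and the likeness is a description with no test.

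Other S100 genes rose alongside over the 9 arrays without butyrate. Of 6 measured, 3 rose over these 9 arrays and 0 fell, beside 2.24% of all genes that rose, with a median difference of 0.49: S100a5 (0.78 ± 0.11, adjusted p = 0.0053), S100a16 (0.74 ± 0.12, 0.0085) and S100a14 (0.91 ± 0.21, 0.0384), an epithelial S100 protein. With 1 array left out, S100a5 and S100a16 passed in 9 of 9 fits, whereas S100a14 passed in 1 of 9, without array 1 of the high-fat wild type (1.15, 0.0044), with adjusted p up to 0.0947 in the other 8. S100b, the glial member, differed by 0.13 ± 0.10 (0.556) and S100a3 by -0.18 ± 0.18 (0.669). S100g, intestinal calbindin itself, differed by 0.25 ± 0.35 (0.775). S100a5, S100a3 and S100b lie below the 30th percentile of mean level.

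By the order of genes on chromosome 3, from RefSeq, the S100 genes that rose over the 9 arrays without butyrate lie together. Of the 10 measured genes from S100a1 to S100a9, all of them S100 genes, 6 rose over these 9 arrays (S100a1, S100a13, S100a14, S100a16, S100a5 and S100a6), with a median difference of 0.48, beside 2.24% of all genes that rose. Of these 6, S100a13, S100a16 and S100a5 passed in all 9 fits without 1 array, S100a6 and S100a1 in 2 of 9 and S100a14 in 1 of 9. S100a3 and S100a4, which lie between S100a16 and S100a5, had negative differences. Of the 6 measured genes on each side 0 of 12 passed, with differences of -0.26 to 0.18, and of the 29 measured genes between S100a9 and S100a10 also 0 passed, with differences of -0.24 to 0.43. The levels of these 12 and 29 genes are not given here, so it is not known how many of them read near background. S100a10, at the far side of these 29 genes, did not pass either. The same 10 genes had medians of 0.62 on normal diet, 0.54 on high-fat diet and 0.38 with butyrate, with 0 of 10 passing in each.

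**Figure D5:**
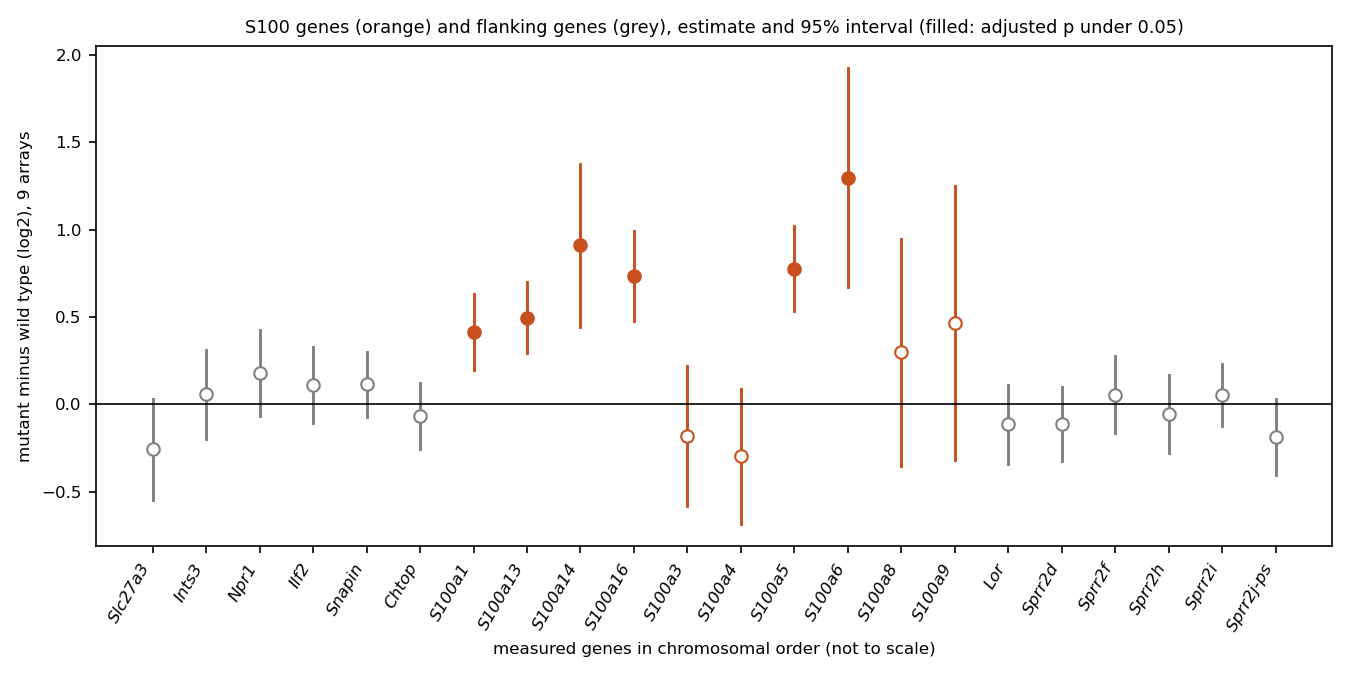
Mutant minus wild-type difference (log2) over the 9 arrays without butyrate, with 95% intervals, for the 10 measured S100 genes from S100a1 to S100a9 and 6 measured genes on each side, in chromosomal order without a distance scale. The 6 filled S100 genes passed at 0.41 to 1.30, and the 12 flanking genes lie between -0.26 and 0.18.

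Among binding partners of S100 proteins there were calls in both directions. Of 15 measured annexins and other partners, 1 rose and 2 fell over the 9 arrays, beside 4.63% of all genes that passed in either direction, with a median difference of 0.08: Anxa7 (0.36 ± 0.08, adjusted p = 0.0384), Anxa6 (-0.49 ± 0.10, 0.0222) and Cacybp, the calcyclin-binding protein named for S100a6 (-0.38 ± 0.09, 0.0400). With 1 array left out, Anxa6 passed in 5 of 9 fits, and Anxa7 and Cacybp in 1 of 9 each, with adjusted p up to 0.0626, 0.0954 and 0.0914. Anxa2, the partner of S100a10, differed by 0.21 ± 0.06 and did not pass (0.0589). Of 9 receptors of secreted S100 proteins, 1 fell, Emb (embigin) at -0.67 ± 0.15 (0.0315, passing in 2 of 9 fits without 1 array), and 0 rose. Ager, the receptor RAGE, differed by -0.26 ± 0.14 (0.351). Of 13 other EF-hand proteins 2 rose, sorcin (Sri, 0.32 ± 0.08, 0.0411) and Efhd2 (0.31 ± 0.08, 0.0478), and 0 fell, beside 2.24% of all genes that rose. Each of these calls held in 1 of 9 fits without 1 array, with adjusted p up to 0.105 for Sri and 0.117 for Efhd2.

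Of 7 measured genes of regenerating epithelium, a list that includes Clu and Anxa1, 0 passed in either direction in limma's test, with a median difference of 0.02. Of the 11 intestinal epithelium markers 1 rose, the keratin Krt18 at 0.56 ± 0.11 (adjusted p = 0.0233, passing in 5 of 9 fits without 1 array), and 0 fell. The group means of that list lay between 12.24 and 12.39.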

How the data were processed

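The deposited log2 values of 13 arrays (22690 probe sets, 1.76 to 14.2) come from RMA in Affymetrix Expression Console 1.1, per the submitters' processing notes. As for the genome build, it is not given in sources used here. The kit in the labels is for whole-transcript arrays, while the probe set names are those of a 3′ array, so the labelling chemistry is uncertain. Control probe sets (64) and those with several symbols (691) or no name (1555) were left out, and 20380 had 1 symbol. That left 12393 genes, each tested through its brightest probe set.

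Groups follow the labels' genotype and diet. The mutated gene itself is not reported here. The design text calls the samples mice, and p-values reflect only how much these samples vary. Genes were tested with limma 3.58.1 in R 4.3.3 (lmFit, contrasts, eBayes with trend), two-sided, adjusted by Benjamini-Hochberg over all genes at 0.05, in 11 comparisons. Fits had 6 group means over 13 arrays (7 residual degrees of freedom), or diet and genotype as terms over 13 arrays (9) or 9 arrays (6). The spread of the 1-array group is taken to equal that of the rest. The procedure was tested on simulated data. No background or detection values were used. The number of arrays per group limits the precision.

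The members and the 15 gene lists (131 of 154 genes measured) were chosen with earlier results of these data known. Named were all members, up to 4 genes of each list with the smallest p over the 9 arrays without butyrate, and, for members with an SD in the top 10%, the 5 genes closest over 13 arrays, without predicted models. Markers named for single arrays, the other genes in the chromosomal order, Vil1, Fabp1 and the red blood cell genes were chosen after their values were seen. Promoter windows are from RefSeq on GRCm38.p6.

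The alternatives were quantile normalization, dropping genes whose mean level is under the 30th percentile, averaging probe sets per gene, no trend in eBayes, array weights, fits of the compared groups alone, a block for the replicate number, the acinar pancreas mean as a covariate, each diet weighted equally and leaving out each array. The stomach mean as a covariate and every probe set were added after the data were seen.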

Additional observations from a re-analysis of the deposited data

How the results depend on the processing

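For 50 values of single genes, S100 members and other named genes, 988 alternatives were run, of which 837 kept direction and side of the threshold, 123 no longer passed, 21 newly passed and 7 turned. The 7 that turned were values of S100a8 and S100a10. S100a8 without mutant high-fat array 1 gave -0.084 over the 9 arrays without butyrate, -0.0057 for genotype on high-fat diet, -0.15 for high-fat against normal diet in mutants and 0.013 for butyrate added in mutants, and S100a10 over the 9 arrays gave -0.022 with the mean of its probe sets, -0.041 without mutant high-fat array 1 and -0.094 from its second probe set. With 1 array left out, S100a10 over the 9 arrays ran from -0.041 to 0.10, and S100a8 ran from -0.084 to 0.497 over the 9 arrays, -0.0057 to 1.62 for genotype on high-fat diet, -0.15 to 1.47 for high-fat against normal diet in mutants and -1.62 to 0.013 for butyrate added.

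The count of members that passed with diet as a term over 13 arrays (1) became 0 without the trend, with the stomach covariate and with diets weighted equally, 3 with the pancreas covariate, and 0 to 3 when 1 array was left out. All genes that passed over 13 arrays (127) numbered 58 without the trend, 52 with the stomach covariate, 5 with diets weighted equally and 313 with the pancreas covariate. Over the 9 arrays (3) the member count was 1 to 3 when 1 array was left out. On normal diet, and for high-fat against normal diet in mutants, the member count of 0 became 1 with the compared groups alone. Leaving out 1 array gave 0 to 2 for genotype within the normal and within the high-fat diet, for high-fat against normal diet and butyrate added in mutants, and for the change of the genotype difference from normal to high-fat diet. On normal diet the 2, S100a13 (adjusted p = 0.0237) and S100a1 (0.0498), came without mutant butyrate array 2. In the other 4 they were S100a8 and S100a9 without mutant high-fat array 2.

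Whether the labels' replicate numbers pair the samples could not be decided from the values. Deviations from the group mean of same-numbered arrays correlated at -0.24 and -0.33 for normal diet and 0.012 for high-fat diet. Where a group is a single pair of arrays, their deviations are mirror images by construction. Differently numbered high-fat arrays therefore had to give -0.012. With the replicate number as a block, members that passed numbered 0 over the 13 and over the 9 arrays, with S100a6 at 1.25 (0.0558) and S100a13 at 0.48 (0.0659) over the 9. The wild-type butyrate array has no number in its label and was left out of that fit, so comparisons that need it have no block value.

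Over these alternatives the count of all genes that passed ran from 244 to 647 over the 9 arrays (574 as reported), from 2 to 329 with diet as a term (127), from 0 to 174 on normal diet (3) and from 3 to 105 on high-fat diet (5). For the diet comparisons it ran from 116 to 1553 in wild type (1368), from 990 to 3046 in mutants (2197), from 1317 to 3085 for butyrate added (2685) and from 39 to 627 for high-fat diet with butyrate against normal diet (195). The cause of these shifts was not tested.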

Other observations

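Marker lists of tissues next to the duodenal mucosa gave these values over the 9 arrays without butyrate. None of the 10 measured acinar pancreas genes passed, with Clps, the lipase cofactor, at -1.36 ± 1.15 (adjusted p = 0.607). Of 6 striated muscle, 3 enteric glia and 5 stratified epithelium markers also 0 passed, with Ncam1, an adhesion molecule of glia and neurons, at -0.37 ± 0.13 (0.137). With the acinar pancreas mean as a covariate over 13 arrays, S100a6 rose by 1.36 (adjusted p = 0.0290), S100a13 by 0.51 (0.0184) and S100a1 by 0.49 (0.0240).

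All 13 arrays read high for Xist (10.5 to 11.9) and low for the Y-linked gene Eif2s3y (2.15 to 2.63).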
